A study of Homo sapiens with 20 samples.

Results

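The change of gene expression between 18 h and 8 h with the compound labelled TK was examined in the libraries labelled DOHH2, a human lymphoma cell line. The members are the 3 libraries of TK at 18 h and the 3 libraries of TK at 8 h, 6 of the 20 libraries of the series, chosen by line, compound and time as labelled. Beside them stand the cultures that received DMSO in place of TK, with 2 libraries at 18 h (replicates 1 and 3) and 3 libraries at 8 h. The same line with TK at both times is compared with U2932, another line the labels place with diffuse large B cell lymphoma, which has 3 TK libraries at 18 h and 2 at 8 h. Polyadenylated RNA was sequenced and deposited as counts per gene. The dose and the identity of TK, the passage of the cells and whether replicates were separate cultures are not given, so the p-values cover variation among libraries, which may be technical. No library was taken before treatment. In bulk RNA, a lower level can come from fewer cells of a type or from less RNA per cell, and these cannot be told apart.

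Several pathways that such a time course can read share a simple logic. The transcription factor p53 switches on genes of cell cycle arrest, repair and death, among them MDM2, whose product degrades p53 in return. NF-kB, held in the cytoplasm by inhibitors such as NFKBIA, drives survival, cytokine and receptor genes in B cells, and it also induces its own inhibitors. Interferon signalling acts through transcription factors such as STAT2 on a large family of antiviral genes, which include STAT2 itself.

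The 6 TK libraries held 30363255 to 52275430 counts in genes. Levels are given as CPM, read counts scaled to library size with TMM factors. TK 18 h replicate 1 stood apart, where 56.6% of all counts were not uniquely aligned, a share that was 20.7 to 34.3% elsewhere in the series. Its levels differed from those of TK 18 h replicates 2 and 3 by a median of 0.34 (log2) each, while replicates 2 and 3 differed by 0.072. Among the TK 8 h libraries these medians were 0.22 to 0.33. TK 8 h replicate 1 also stood apart, with 3.29% of its gene counts from the mitochondrial genome, against 5.06 to 6.49% in the other 10 DOHH2 libraries. On the first principal component of the DOHH2 libraries, TK 8 h replicates 1, 2 and 3 scored -49.2, -22.4 and 10.6, and TK 18 h replicates 1, 2 and 3 scored -3.57, 23.9 and 29.4. B cell genes were well expressed in the 11 DOHH2 libraries, with MS4A1 (CD20) at 50.4 to 141 CPM and CD79A at 331 to 659 CPM. The T cell marker CD3D had no count in any of them, and the monocyte marker CD14 was at 0 to 0.178 CPM. BCL6, a repressor of germinal centre B cells, was at 0 to 0.358 CPM. This value goes against the usual class of DOHH2, so the line is named as labelled and BCL6 was chosen after its values were seen. Among fibroblast and epithelial markers the collagen gene COL1A1 was at 6.40 to 10.3 CPM with TK at 18 h and 9.91 to 29.2 CPM with TK at 8 h, while the keratin gene KRT18 was at 0 to 0.0976 CPM in all 11 libraries. The summed level of the fibroblast and epithelial list was 7.22 to 12.5 CPM at 18 h and 10.9 to 32.9 CPM at 8 h with TK, and its part in any result was not tested.

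Between 18 h and 8 h with TK, 258 of 16478 genes tested passed an adjusted p of 0.05, which is 1.57% of them. Of these 112 were higher at 18 h (0.68%) and 146 lower (0.886%). The rises included a linker histone gene, targets of p53, interferon-stimulated genes and the nuclear RNA NEAT1. The falls included 7 targets of NF-kB. The quasi-likelihood test of edgeR was used, with p-values adjusted by Benjamini-Hochberg, and 2972 genes had an unadjusted p below 0.05. Of all genes tested, 8.54% had every TK 18 h library above every TK 8 h library, and 7.84% had every one below. Genes named for the size of their change with TK were required to show no overlap. For them its absence is no further evidence. The count depended on single libraries. Leaving out TK 18 h replicate 2 or 3 gave 100 or 96 genes. Leaving out TK 8 h replicate 1, 2 or 3 gave 47, 36 or 1268 genes. Without TK 18 h replicate 1 it was 263, of which 138 were among the 258. All 258 genes kept their sign in each of these 6 fits, and 26 (14 higher and 12 lower) passed in all 6. The kept sign was nearly fixed in advance, since the genes were chosen with all 6 TK libraries and each fit leaves out only 1.

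**Figure D1:**
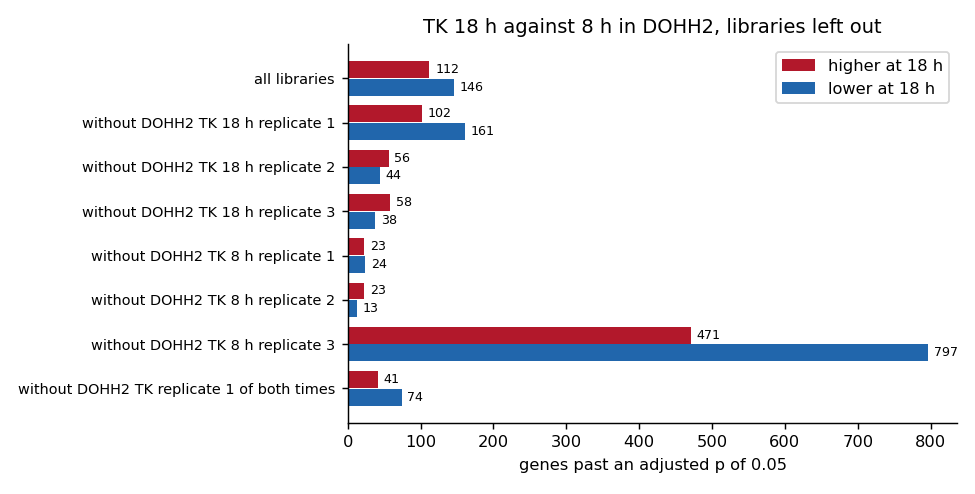
Number of genes past an adjusted p of 0.05 (horizontal axis) that were higher (red) or lower (blue) at 18 h than at 8 h with TK in DOHH2, with all libraries and with libraries left out. The bars run from 23 and 13 genes without TK 8 h replicate 2 to 471 and 797 genes without TK 8 h replicate 3.

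**Figure D2:**
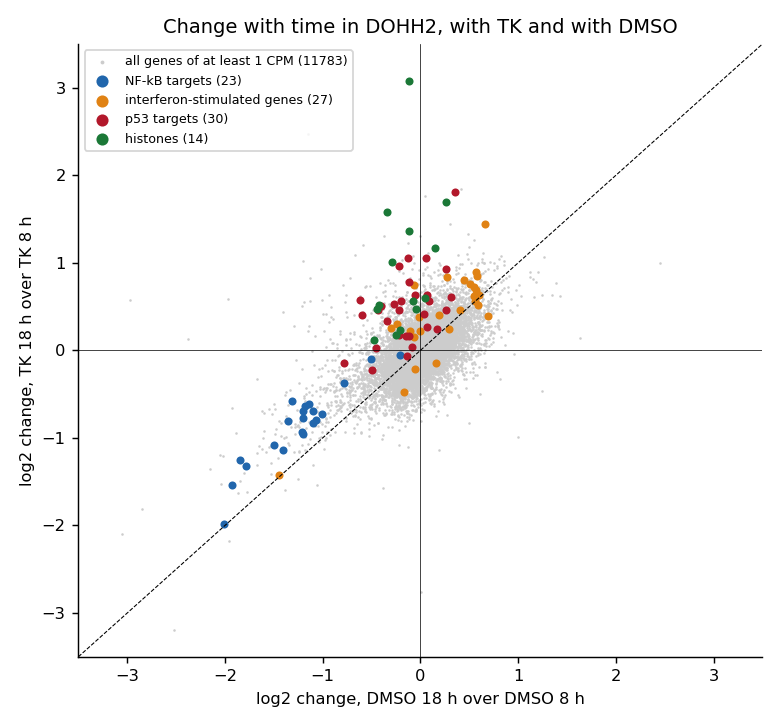
Log2 change between 18 h and 8 h with TK (vertical axis) against that with DMSO (horizontal axis) for the genes of at least 1 CPM on average (grey) and for the tested members of 4 gene lists (colours). The dashed line marks equal changes. The NF-kB targets lie at the lower left, while the p53 targets and histones lie above 0 on the vertical axis in most cases.

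Targets of p53 were higher at 18 h than at 8 h with TK. Of 30 members, all tested, 7 rose, 0 fell and 27 changed in the positive direction, the list's median log2 change being 0.46 against 0.02 over all genes tested. MDM2, the ubiquitin ligase that degrades p53, had 383, 449 and 482 CPM in TK replicates 1, 2 and 3 at 18 h, against 204, 193 and 233 CPM at 8 h. The lowest library at 18 h was well above the highest at 8 h. The log2 change was 1.06 (SE 0.13, edgeR adjusted p = 0.000212), or 2.08-fold. SESN1, a stress-induced sestrin that restrains mTORC1, had 28.5, 28.2 and 26.7 CPM at 18 h, against 13.0, 13.1 and 14.2 CPM at 8 h. The groups of SESN1 did not overlap, which the naming rule requires of it and of MDM2. The spread within each group was small beside the log2 change of 1.05 (SE 0.13, edgeR adjusted p = 0.000212). MDM2 lies on chromosome 12 at 68808176 to 68850686 and SESN1 on chromosome 6 at 108986437 to 109094819 (GRCh38, GENCODE v29).

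EDA2R, a receptor of the tumour necrosis factor receptor family, had 20.1, 24.4 and 22.5 CPM at 18 h, against 9.73, 12.1 and 12.5 CPM at 8 h with TK. The log2 change was 0.97 (SE 0.17, edgeR adjusted p = 0.011) and passed in every fit with a library left out but the one without TK 8 h replicate 1 (0.87). XPC, which recognises damaged DNA in nucleotide excision repair, had 90.4, 63.3 and 66.0 CPM at 18 h, against 52.6, 49.6 and 46.9 CPM at 8 h. SESN2, the sestrin that senses leucine, had 83.8, 46.5 and 46.7 CPM at 18 h, against 37.0, 37.5 and 28.6 CPM at 8 h. In both, TK 18 h replicate 1 was the highest library and the groups did not overlap. The log2 change of XPC was 0.56 (SE 0.12) with all libraries and did not pass without TK 18 h replicate 1 (0.38) or TK 8 h replicate 1 (0.60) or 2 (0.56). That of SESN2 was 0.78 (SE 0.18) and did not pass without the same libraries (0.44, 0.84 and 0.85 in that order). POLH, a polymerase that copies past DNA lesions, was chosen after its values were seen and had a log2 change of 0.61 (SE 0.15), which passed without TK 8 h replicate 3 but not without any of the other 5 TK libraries (0.50 to 0.65).

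Other well known members did not pass. CDKN1A, the cell cycle inhibitor p21, had 691, 391 and 432 CPM at 18 h, against 476, 327 and 242 CPM at 8 h, with groups that overlapped and a log2 change of 0.53 (SE 0.22, edgeR adjusted p = 0.21). BBC3, which encodes the pro-apoptotic protein PUMA, had a log2 change of 0.50 (SE 0.22, edgeR adjusted p = 0.228). CDKN1A and BBC3 were chosen after their values were seen. FAS, a death receptor that was lower at 18 h with DMSO (log2 change -0.79), had -0.14 with TK and likewise lies outside the naming rule. The number of p53 targets that rose was 4, 5 and 5 without TK 18 h replicates 1, 2 and 3, and 2, 3 and 10 without TK 8 h replicates 1, 2 and 3, with list medians of 0.36 to 0.53. Fitting the DOHH2 libraries only gave 3 such rises, and fitting the 6 TK libraries only gave 0, with a median of 0.45 in each fit. With DMSO the same list had 0 rises and 1 fall (DMSO background 0.146% higher and 0.485% lower) and a median of -0.13 against 0 over all genes.

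**Figure D3:**
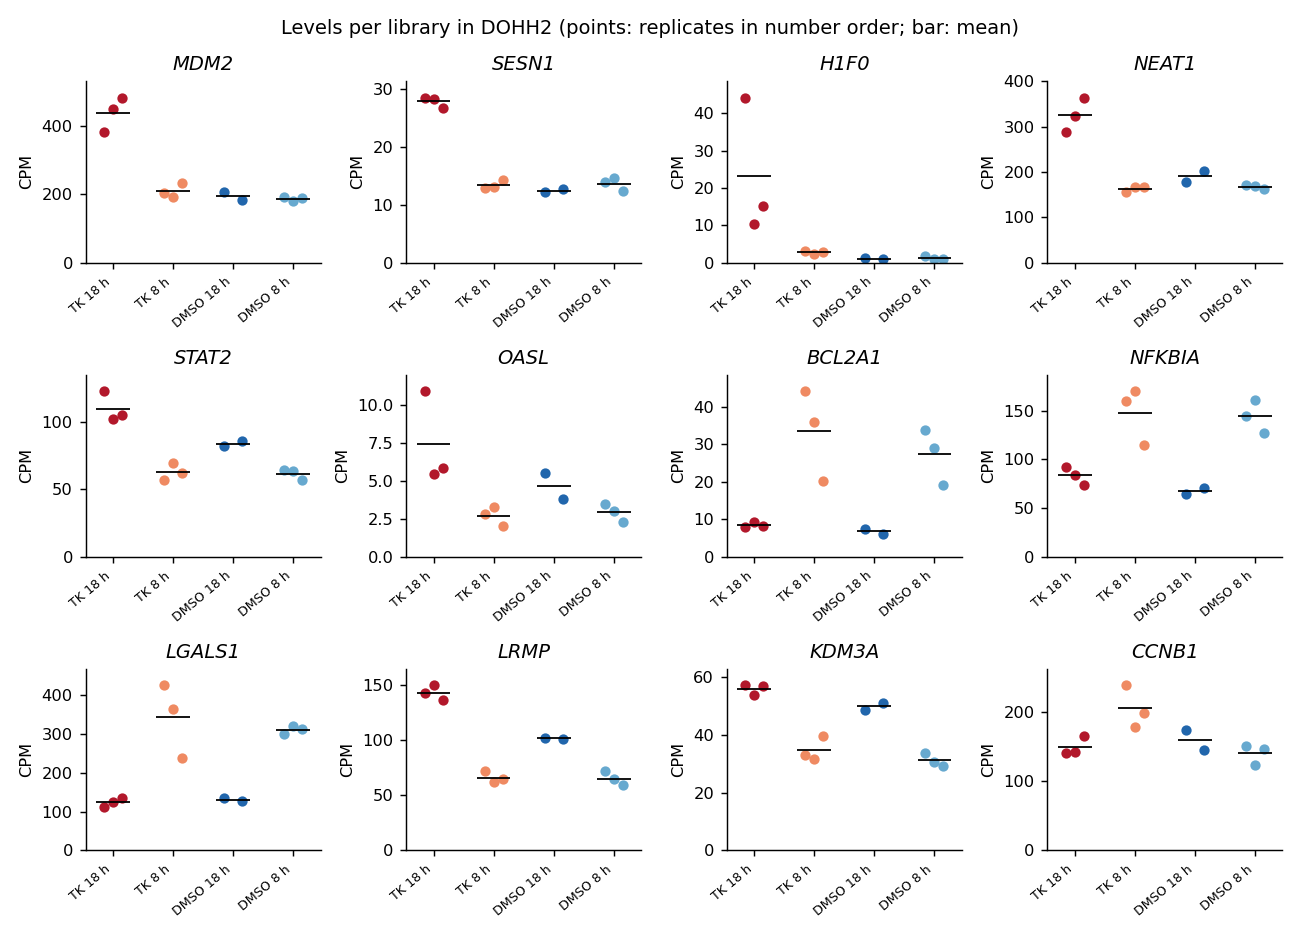
Level in CPM (vertical axes, from 0) of 12 genes in each DOHH2 library, with TK at 18 h and 8 h (reds) and with DMSO at 18 h and 8 h (blues); points are libraries and bars are means. MDM2, SESN1, H1F0 and NEAT1 are highest in the TK 18 h libraries, and BCL2A1, NFKBIA and LGALS1 are lower at 18 h than at 8 h with TK and with DMSO.

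The largest rise among the genes the naming rule takes was in H1F0, the linker histone H1.0, which accumulates in cells that stop dividing. It had 44.2, 10.5 and 15.1 CPM at 18 h with TK, against 3.06, 2.27 and 2.90 CPM at 8 h. Replicate 1 was far above the other 18 h libraries, and all 3 were above every 8 h library. The log2 change was 3.08 (SE 0.40, edgeR adjusted p = 0.000478), or 8.47-fold, and was 2.22 without TK 18 h replicate 1. H1FX, another linker histone, had 214, 104 and 114 CPM at 18 h, against 95.6, 66.3 and 56.5 CPM at 8 h, with a log2 change of 0.98 (SE 0.24). It did not pass without TK 18 h replicate 1 (0.58) or TK 8 h replicate 2 (0.92) or 3 (0.83).

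Of the 15 genes of the histone list, which holds H1F0 but not H1FX, 14 were tested. In this list 3 rose, 0 fell and all 14 changes were positive, with a median of 0.58 with TK and -0.16 with DMSO, where none passed. HIST1H2BJ, a gene of histone H2B, had 5.56, 2.96 and 4.04 CPM at 18 h, against 1.11, 1.48 and 1.25 CPM at 8 h, a log2 change of 1.70 (SE 0.25). HIST2H2BE, another H2B gene, had 7.01, 3.49 and 3.97 CPM at 18 h, against 1.20, 1.82 and 1.76 CPM at 8 h, a log2 change of 1.59 (SE 0.29) that did not pass without TK 8 h replicate 1 (1.42) or 2 (1.69). In both genes, TK 18 h replicate 1 was the highest library and the groups did not overlap. With TK 18 h replicate 1 left out the list's median was 0.30. With TK 8 h replicate 1 or 2 left out only H1F0 and HIST1H2BJ passed, and the medians were 0.92 and 0.82. The counts of clustered histone genes such as HIST1H2BJ are uncertain. These genes resemble each other closely, and poly(A) selection misses most of their transcripts.

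NEAT1, the long RNA on which paraspeckles form in the nucleus, had 288, 324 and 365 CPM at 18 h with TK, against 156, 167 and 168 CPM at 8 h. The groups were far apart, and the log2 change of 0.99 (SE 0.12, edgeR adjusted p = 0.000212) passed with any TK library left out. MIR34AHG, which carries miR-34a, a microRNA that p53 induces, had 24.7, 31.5 and 34.5 CPM at 18 h, against 18.5, 18.5 and 17.3 CPM at 8 h. Its log2 change of 0.74 (SE 0.17) did not pass without TK 18 h replicate 2 (0.71) or 3 (0.64) or TK 8 h replicate 1 or 2 (0.76 each). MIR155HG, the host transcript of miR-155, which B cells raise on activation, went the other way, with 39.4, 54.7 and 40.1 CPM at 18 h, against 92.4, 98.7 and 76.7 CPM at 8 h. Its log2 change of -1.0 (SE 0.19) did not pass without TK 18 h replicate 3 (-0.92) or TK 8 h replicate 1 (-0.97) or 2 (-0.92). These were the members that passed among 8 nuclear long RNAs tested, whose median was -0.03.

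Interferon-stimulated genes were mostly higher at 18 h with TK. All 27 members were tested, of which 7 rose, 1 fell and 23 had positive changes, with a median of 0.46. Over all genes tested, 0.68% rose and 0.886% fell with TK, and the median was 0.02. STAT2, a transcription factor that carries type I interferon signals to the nucleus, had 123, 103 and 105 CPM at 18 h, against 57.2, 69.8 and 62.1 CPM at 8 h. The groups did not overlap. The log2 change of STAT2 was 0.81 (SE 0.11, edgeR adjusted p = 0.000874) and passed with any TK library left out.

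OASL, a relative of the antiviral oligoadenylate synthetases, had 10.9, 5.44 and 5.84 CPM at 18 h, against 2.83, 3.27 and 2.0 CPM at 8 h, a log2 change of 1.45 (SE 0.27, edgeR adjusted p = 0.0127). TK 18 h replicate 1 was its highest library. OASL did not pass in 3 of 15 alternative fits, over which its log2 change was 0.92 to 1.63. SAMD9 and SAMD9L, neighbouring antiviral genes on chromosome 7 outside the list, had log2 changes of 1.01 each (SE 0.25 and 0.22) and edgeR adjusted p-values of 0.0496 and 0.0258. Neither passed without TK 18 h replicate 2 or 3 or TK 8 h replicate 1 or 2, where SAMD9 was at 0.85 to 0.95 and SAMD9L at 0.85 to 1.12. IFI27, an interferon-induced gene of mitochondrial localisation, was the member that fell, with 5.68, 7.14 and 5.45 CPM at 18 h, against 19.6, 18.5 and 11.2 CPM at 8 h (log2 change -1.42, SE 0.20, edgeR adjusted p = 0.000874). It passed with any TK library left out. With DMSO the list had 0 rises and IFI27 as its 1 fall (-1.45), with 17 of 27 changes positive and a median of 0.29. STAT2 had a log2 change of 0.45 (SE 0.12) with DMSO and did not pass.

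The number of interferon-stimulated genes that rose with TK was 5, 3 and 3 without TK 18 h replicates 1, 2 and 3, and 3, 2 and 7 without TK 8 h replicates 1, 2 and 3. Fitting the DOHH2 libraries only gave 2 such rises, and fitting the 6 TK libraries only gave 0, with a median of 0.45 in each fit. The promoters of this list are shown because STAT2 acts through a known element in them. A core of that element, GAAA followed by any 2 bases and GAAA, was searched on both strands in windows of RefSeq promoters (GRCh38.p14) from 250 bases before to 50 after the start. It was in 13 of 20 promoters of the list that the table holds (65.0%) and in 3.09% of the 16326 promoters of tested genes. Of the 7 members that rose, 4 had a promoter in the table, and IFIT1 and IFI44L held it. Over all genes higher at 18 h with TK the share was 7.41% (6 of 81), and over all lower genes it was 4.07% (5 of 123). The list was made of interferon-stimulated genes, so its high share was nearly fixed in advance and is no evidence on TK. IFIT1 and IFI44L also count among the 6. IFIT1, an antiviral protein that binds foreign RNA, lies in the window chr10:89392373-89392672 on the plus strand, and IFI44L, an interferon-induced gene, in chr1:78620198-78620497 on the plus strand. Capitals mark the matches, which are on the minus strand in IFIT1 and on the plus strand in IFI44L.
IFIT1: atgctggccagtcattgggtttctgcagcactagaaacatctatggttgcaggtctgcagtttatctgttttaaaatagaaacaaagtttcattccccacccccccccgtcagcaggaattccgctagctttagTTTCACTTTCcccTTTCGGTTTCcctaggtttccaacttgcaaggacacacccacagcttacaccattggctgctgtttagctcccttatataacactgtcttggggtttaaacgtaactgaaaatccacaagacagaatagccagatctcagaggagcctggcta
IFI44L: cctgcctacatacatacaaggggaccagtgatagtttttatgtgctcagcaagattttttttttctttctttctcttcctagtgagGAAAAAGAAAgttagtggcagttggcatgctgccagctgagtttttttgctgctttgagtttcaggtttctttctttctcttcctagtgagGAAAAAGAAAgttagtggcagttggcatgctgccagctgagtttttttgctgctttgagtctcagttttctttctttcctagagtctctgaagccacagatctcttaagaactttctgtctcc

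IFIT1 had 22.2, 19.6 and 17.5 CPM at 18 h with TK, against 11.3, 11.2 and 10.6 CPM at 8 h, and IFI44L had 112, 155 and 116 CPM at 18 h, against 71.7, 78.8 and 80.8 CPM at 8 h. Both were chosen after their values were seen, and in neither did the groups overlap. The log2 changes were 0.84 (SE 0.21, edgeR adjusted p = 0.0496) for IFIT1 and 0.73 (SE 0.18, edgeR adjusted p = 0.0482) for IFI44L. IFIT1 passed without TK 8 h replicate 3 but not without any other TK library (0.75 to 0.91), and IFI44L passed without TK 18 h replicate 1 or TK 8 h replicate 3 but not without the others (0.56 to 0.79).

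Targets of NF-kB were lower at 18 h. All 23 members were tested, all 23 changes were negative with TK, 7 passed as falls and 0 as rises, and the median was -0.81. The same list had 14 falls, 0 rises and a median of -1.21 with DMSO. Over all genes tested, 0.886% fell with TK and 0.485% with DMSO, and the medians were 0.02 and 0. BCL2A1, a survival protein of the BCL2 family, had 7.85, 9.34 and 8.20 CPM at 18 h with TK, against 44.2, 36.0 and 20.2 CPM at 8 h. The 8 h libraries were spread, but each was above all 18 h libraries. The log2 change was -1.98 (SE 0.24, edgeR adjusted p = 0.000212) with TK and -2.01 (SE 0.28) with DMSO, and it passed with any TK library left out. BCL2A1 lies on chromosome 15 at 79960889 to 79971446 (GRCh38).

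NFKBIA, the inhibitor that holds NF-kB in the cytoplasm, had 92.5, 83.4 and 74.0 CPM at 18 h with TK, against 159, 169.8 and 115 CPM at 8 h. Its groups did not overlap, and the log2 change of -0.83 (SE 0.15, edgeR adjusted p = 0.00982) did not pass without TK 8 h replicate 2 (-0.72). EBI3, a subunit of interleukin 27, had 16.3, 13.0 and 8.86 CPM at 18 h, against 34.5, 41.7 and 19.2 CPM at 8 h. CD40, the receptor through which T cells stimulate B cells, had 73.9, 49.8 and 44.8 CPM at 18 h, against 150.0, 140.4 and 78.9 CPM at 8 h. In EBI3 and CD40, as in NFKBIA, TK 8 h replicate 3 was the lowest 8 h library and still above all 18 h libraries. The log2 changes were -1.32 (SE 0.26) for EBI3 and -1.13 (SE 0.21) for CD40. Neither passed without TK 18 h replicate 3 (-1.12 for EBI3, -0.99 for CD40) or TK 8 h replicate 1 (-1.26 and -0.97) or 2 (-1.08 and -1.03).

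CCL4, a chemokine that draws T cells and monocytes, had 1.25, 1.76 and 1.35 CPM at 18 h, against 4.26, 6.07 and 2.48 CPM at 8 h with TK, a log2 change of -1.54 (SE 0.31). It did not pass without TK 18 h replicate 3 (-1.49) or TK 8 h replicate 1 (-1.54) or 2 (-1.20). The other 2 members that fell, chosen after their values were seen, were RELB, a subunit of NF-kB itself (-0.93, SE 0.21), and TNFAIP2 (-1.08, SE 0.22). RELB and TNFAIP2 did not pass without TK 18 h replicate 2 or 3 or TK 8 h replicate 1 or 2, with RELB at -0.78 to -0.93 and TNFAIP2 at -0.88 to -1.06. TNFAIP3, the ubiquitin-editing inhibitor A20, fell with DMSO (-1.31) and had -0.58 (SE 0.22, edgeR adjusted p = 0.161) with TK; it too lies outside the naming rule and was picked with its values in view. The number of list members that fell with TK was 13, 5 and 2 without TK 18 h replicates 1, 2 and 3, and 2, 1 and 16 without TK 8 h replicates 1, 2 and 3, while the median stayed between -1.05 and -0.60. Fitting the DOHH2 libraries only gave 2 such falls, and fitting the 6 TK libraries only gave 1, with a median of -0.84 in each fit.

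Promoters of NF-kB targets are shown for the same reason as above. A core of the kappa B site, GGG followed by any 3 bases and TTCC, was in 7 of the 19 promoters of the list in the table (36.8%) and in 7.44% of promoters of tested genes, searched on both strands. Of the 7 members that fell, 4 had a promoter in the table, and NFKBIA and EBI3 held it. All genes lower at 18 h with TK held it in 13.0% (16 of 123) and all higher genes in 11.1% (9 of 81). The list was made of NF-kB targets, so its high share was nearly fixed in advance and is no evidence on TK. NFKBIA and EBI3 also count among the 16. The motifs were searched separately, so matches of the 2 may overlap. NFKBIA lies in the window chr14:35404700-35404999 on the minus strand and EBI3 in chr19:4229273-4229572 on the plus strand. Capitals mark the match, which is on the strand opposite to the gene in NFKBIA.
NFKBIA: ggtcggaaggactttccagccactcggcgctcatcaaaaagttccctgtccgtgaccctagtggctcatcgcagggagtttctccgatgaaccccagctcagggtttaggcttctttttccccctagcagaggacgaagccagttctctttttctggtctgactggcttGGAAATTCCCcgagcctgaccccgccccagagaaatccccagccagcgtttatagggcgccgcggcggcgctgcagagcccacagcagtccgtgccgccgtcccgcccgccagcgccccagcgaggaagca
EBI3: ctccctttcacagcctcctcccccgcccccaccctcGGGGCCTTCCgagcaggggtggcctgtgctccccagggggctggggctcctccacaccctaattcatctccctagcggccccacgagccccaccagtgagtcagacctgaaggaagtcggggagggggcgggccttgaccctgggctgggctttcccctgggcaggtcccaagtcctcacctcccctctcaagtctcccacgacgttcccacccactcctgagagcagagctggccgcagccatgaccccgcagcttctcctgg

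**Figure D4:**
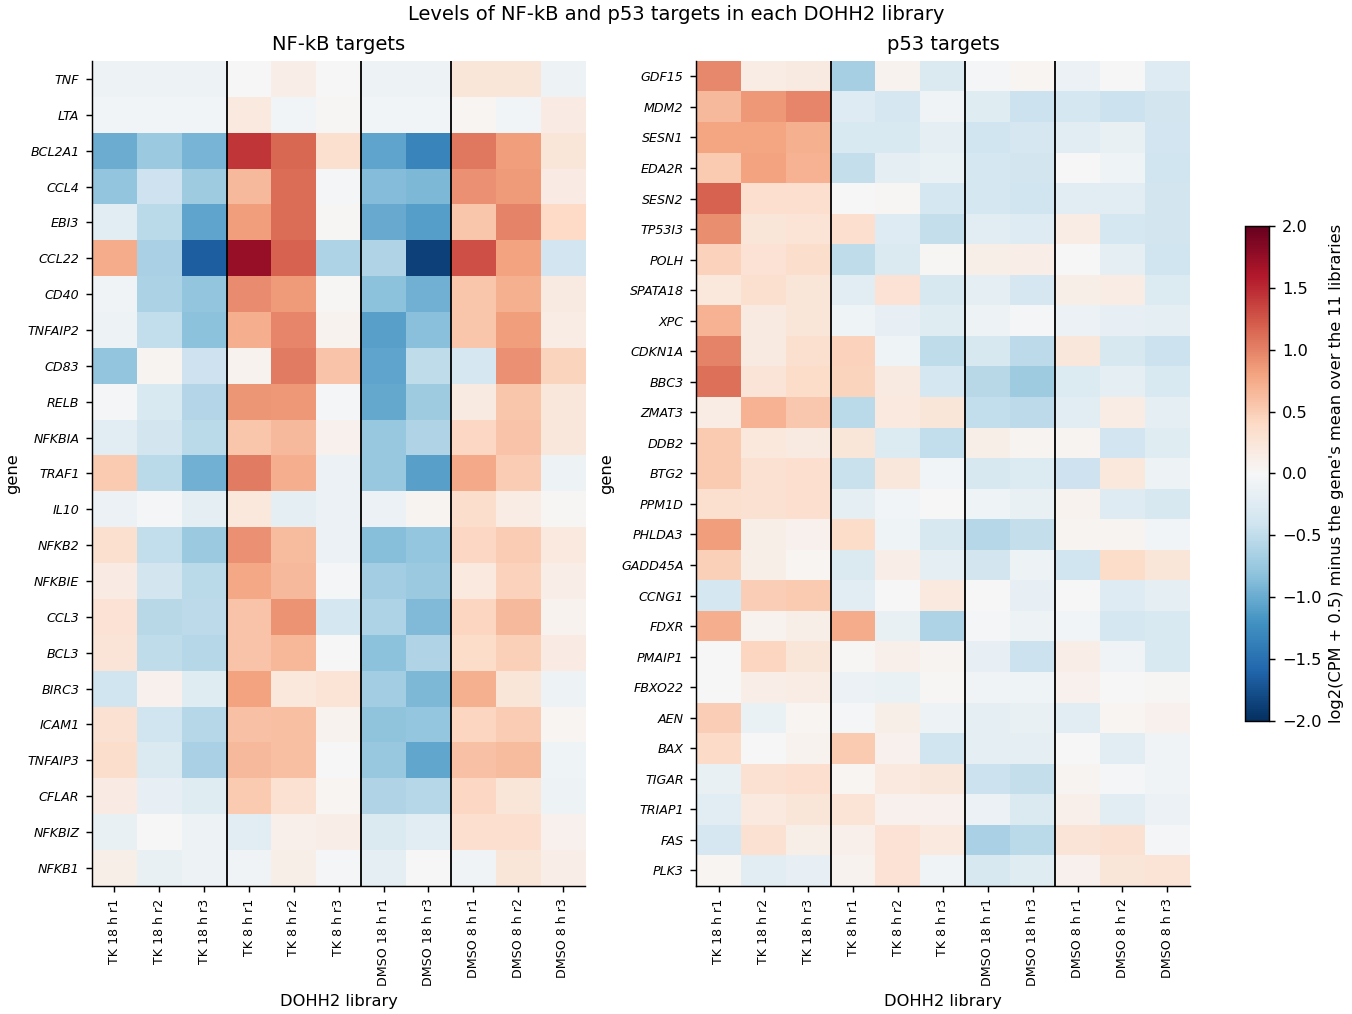
Level of each tested NF-kB target (left, 23 genes) and of 27 p53 targets (right) in the 11 DOHH2 libraries, as log2(CPM + 0.5) minus the gene's mean over these libraries; columns are libraries (r, replicate number) and colours run from blue (below the mean) to red (above it). The NF-kB targets are mostly red in TK 8 h replicates 1 and 2 and paler in replicate 3, and mostly blue in the 18 h columns of DMSO.

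Other genes of cell surface and signalling fell with TK, and some of these, such as ACHE and IL32, fell with DMSO too. LGALS1, the glycan-binding protein galectin-1, had 112, 125 and 135 CPM at 18 h, against 426, 365 and 239 CPM at 8 h, a log2 change of -1.47 (SE 0.19, edgeR adjusted p = 0.000546). ACHE, acetylcholinesterase, had 13.5, 10.9 and 8.17 CPM at 18 h, against 38.7, 36.6 and 18.9 CPM at 8 h, a log2 change of -1.53 (SE 0.24). NINJ1, a membrane protein that ruptures the membrane of dying cells, had 7.71, 6.45 and 5.51 CPM at 18 h, against 15.8, 25.1 and 11.3 CPM at 8 h, a log2 change of -1.41 (SE 0.23). In none of the 3 genes did the groups overlap, which the naming rule requires. Each of the 3 passed with any TK library left out. The same held for the calls of LINC00158, a long noncoding RNA (log2 change -1.29, SE 0.21).

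IL32, a cytokine (log2 change -1.63, SE 0.31), CRIP1, a LIM domain protein (-1.60, SE 0.33), IZUMO4 (-1.16, SE 0.25) and SDC4, the cell surface proteoglycan syndecan-4 (-1.15, SE 0.27), completed the 12 falls that the naming rule takes. These 4 genes did not pass without TK 18 h replicate 2 or 3 or TK 8 h replicate 1 or 2. In those fits IL32 was at -1.32 to -1.58, CRIP1 at -1.42 to -1.64, IZUMO4 at -0.99 to -1.22 and SDC4 at -0.80 to -1.22. CD79B, the signalling chain of the B cell receptor, had 96.4, 105 and 101 CPM at 18 h, against 172, 209 and 133 CPM at 8 h, a log2 change of -0.76 (SE 0.15). It did not pass without TK 18 h replicate 3 (-0.77) or TK 8 h replicate 1 (-0.76) or 2 (-0.60). CD79B was the only member to pass among 21 genes of B cell receptor signalling (median -0.03) and 20 of B cell identity (median -0.07). CD44, an adhesion receptor of activated lymphocytes, had a log2 change of -0.58 (SE 0.13), and did not pass without TK 18 h replicate 2 or 3 or TK 8 h replicate 1 or 2 (-0.52 to -0.59).

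Rises outside these lists were led by LRMP, a lymphoid-restricted membrane protein of the endoplasmic reticulum. LRMP had 143, 150.1 and 136 CPM at 18 h with TK, against 71.6, 62.2 and 64.5 CPM at 8 h, and its edgeR adjusted p of 2.5e-05 was the smallest of all genes (log2 change 1.12, SE 0.11). SHOX2, a homeobox transcription factor, had 44.9, 35.9 and 39.6 CPM at 18 h, against 15.3, 21.1 and 22 CPM at 8 h, a log2 change of 1.04 (SE 0.18). KDM3A, a histone H3 lysine demethylase that hypoxia induces, had 57.3, 53.8 and 56.9 CPM at 18 h, against 33.2, 31.6 and 39.8 CPM at 8 h, a log2 change of 0.68 (SE 0.11). In these 3 genes the groups did not overlap, which the naming rule requires of LRMP and SHOX2. Each of the 3 passed with any TK library left out.

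ZNF618, a zinc finger protein (log2 change 1.02, SE 0.23), and MAP1A, a microtubule-associated protein (0.98, SE 0.23), also rose with all libraries. ZNF618 did not pass without TK 18 h replicate 1 (0.84) or 2 (1.04) or TK 8 h replicate 1 (1.11) or 2 (1.05). MAP1A passed without TK 18 h replicate 3 but not without any of the other 5 TK libraries (0.64 without TK 18 h replicate 1 to 1.12 without TK 8 h replicate 1). GABARAPL1, a protein of autophagosome formation, had 2.40, 2.18 and 2.0 CPM at 18 h, against 0.846, 1.29 and 0.896 CPM at 8 h, a log2 change of 1.11 (SE 0.21) that did not pass without TK 8 h replicate 1 (1.0). It was the only member to pass among 27 tested genes of autophagy and lysosome (median -0.01).

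MXI1 and MXD1, which compete with MYC for its partner MAX, had log2 changes of 0.72 (SE 0.14) and 0.59 (SE 0.14) and were the members that passed among 10 tested genes of MYC and its partners. MXI1 did not pass without TK 8 h replicate 1 (0.69) or 2 (0.66), nor MXD1 without TK 18 h replicate 2 (0.51) or 3 (0.54) or TK 8 h replicate 1 (0.61) or 2 (0.58). CITED2, which limits hypoxia signalling and is also a FOXO target, had 0.57 (SE 0.14), and passed without TK 8 h replicate 3 but not without any other TK library (0.48 to 0.58). Of the 25 MYC targets tested, SRM, the spermidine synthase, was the 1 that passed (log2 change -0.66, SE 0.14). SRM did not pass without TK 18 h replicate 2 or 3 or TK 8 h replicate 1 or 2 (-0.61 to -0.70).

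Genes of the translation machinery were lower at 18 h with TK by small amounts. The summed level of 27 ribosomal protein genes was 45541, 51246 and 58133 CPM in TK replicates 1, 2 and 3 at 18 h, against 74827, 66808 and 57913 CPM at 8 h. The groups overlapped, and the highest sum was in TK 8 h replicate 1, the library with the low mitochondrial share. Without that library the list's median log2 change was -0.33 and none of its members passed. All 27 ribosomal protein genes had negative changes, with a median of -0.38 with TK and -0.16 with DMSO, and 2 fell with TK. RPS19, of the small subunit, had 1339, 1763 and 1959 CPM at 18 h, against 3698, 2628 and 2056 CPM at 8 h, a log2 change of -0.73 (SE 0.17). RPL18, of the large subunit, had a log2 change of -0.57 (SE 0.14). RPS19 did not pass without TK 18 h replicate 1 (-0.59) or 2 (-0.76) or TK 8 h replicate 1 (-0.47) or 2 (-0.77), nor RPL18 without any TK library but TK 8 h replicate 3 (-0.43 to -0.63). Without TK 8 h replicate 3 there were 11 falls in the list, and without both replicates 1 the median was -0.18. All 13 small nucleolar RNA host genes also had negative changes (median -0.42), of which SNHG17 fell (-0.51, SE 0.12). SNHG17 did not pass without any TK library but TK 8 h replicate 3 (-0.47 to -0.52). The list's median was -0.24 without TK 18 h replicate 1. HSPA8, the constitutive HSP70 chaperone, had 2893, 3205 and 3329 CPM at 18 h, against 4618, 4758 and 4708 CPM at 8 h, a log2 change of -0.58 (SE 0.12) that did not pass without TK 18 h replicate 2 (-0.59) or TK 8 h replicate 2 (-0.57).

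In the glycolysis and hypoxia list of 32 genes, 2 rose with TK, KDM3A among them, and 1 fell, with a median of -0.01. The fall was in ENO1, the glycolytic enolase (-0.48, SE 0.12, edgeR adjusted p = 0.0497), which passed without TK 8 h replicate 3 but not without any other TK library (-0.35 to -0.52). Of 25 nuclear oxidative phosphorylation genes none passed, and 23 had negative changes with a median of -0.29, which was -0.003 without both replicates 1. Of 13 MHC class II genes none passed, with a median of -0.38 that was 0.09 without TK 8 h replicate 1.

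Genes of cell division did not pass in either direction with TK. Of 32 mitosis genes 28 had negative changes with TK (median -0.15), whereas 31 had positive ones with DMSO (median 0.33). CCNB1, a mitotic cyclin, had 141, 143 and 165 CPM at 18 h, against 239, 178 and 199 CPM at 8 h with TK (log2 change -0.46, SE 0.15, edgeR adjusted p = 0.11). With DMSO it had 174 and 145 CPM at 18 h, against 150, 124 and 146 CPM at 8 h (0.19, SE 0.16). The difference of the CCNB1 changes was -0.64 (SE 0.22) and did not pass; CCNB1 lies outside the naming rule and was picked with its values in view. The rule takes PTTG1, the gene of securin, which had -0.68 (SE 0.21, edgeR adjusted p = 0.1) with TK and 0.04 (SE 0.24) with DMSO. Of 35 DNA replication genes 24 had positive changes with TK (median 0.10) and all 35 with DMSO (median 0.34), and none passed with either.

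**Figure D5:**
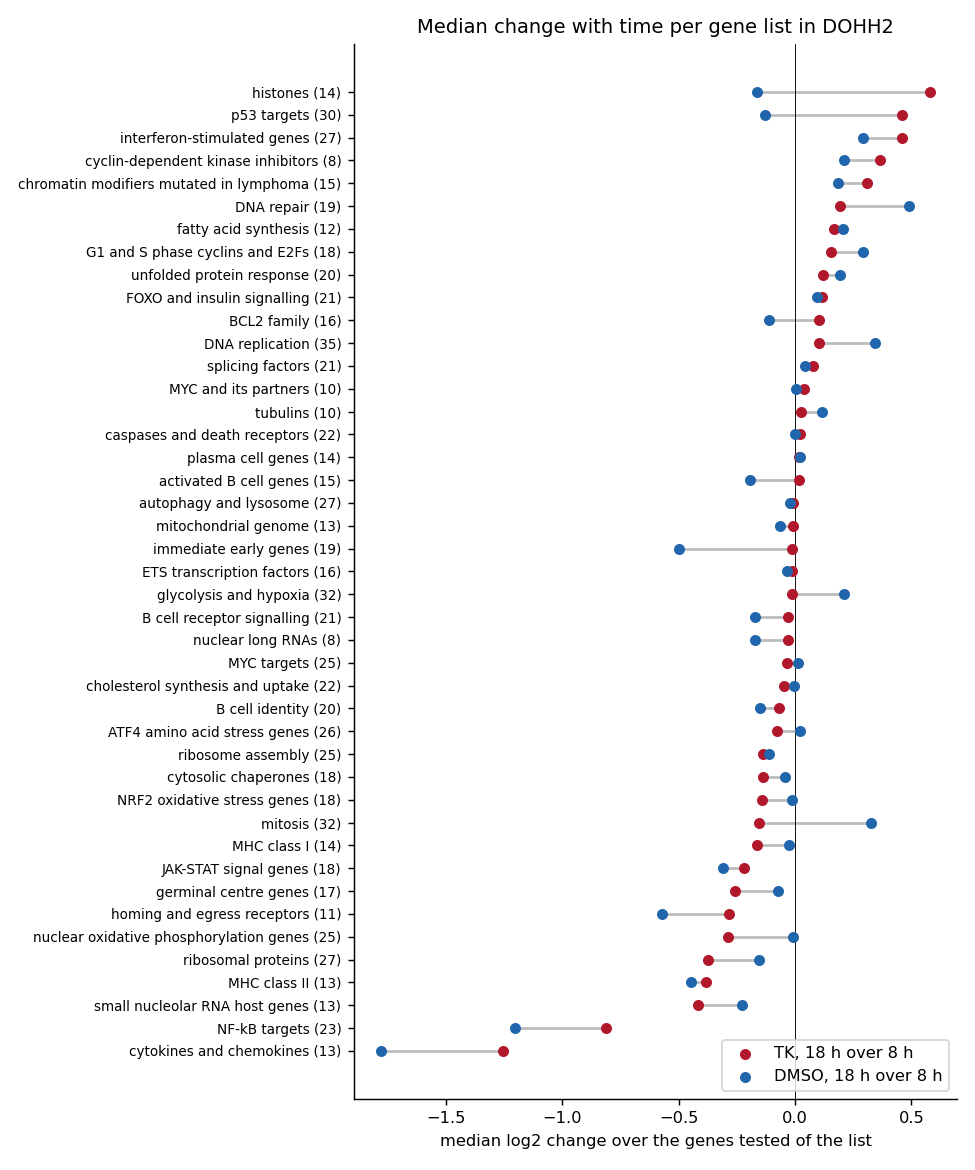
Median log2 change between 18 h and 8 h of the tested members of each gene list (number in brackets) with TK (red) and with DMSO (blue) in DOHH2. The medians of cytokines and NF-kB targets are lowest with both, and those of histones, p53 targets and mitosis genes lie on opposite sides of 0 with TK and DMSO.

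The changes with TK were set beside those with DMSO, which share no library with them. With DMSO 104 genes passed between 18 h and 8 h (0.631% of the genes tested), 24 higher and 80 lower. Both contrasts had 10 rises in common, 8.93% of those with TK and 41.7% of those with DMSO. They had 40 falls in common, 27.4% of those with TK and 50% of those with DMSO. The sign with DMSO was the same for 101 of the 112 genes that rose with TK and for 144 of the 146 that fell. Their median log2 changes were 0.80 with TK and 0.40 with DMSO for the rises, and -0.74 with TK and -0.51 with DMSO for the falls. Across the 10012 genes whose log2 CPM averaged 2 or more over the DOHH2 libraries, Pearson's r between the changes was 0.644, and over all 16478 genes tested it was 0.188. These are descriptions over genes, which are not independent. KDM3A had a log2 change of 0.68 with each of TK and DMSO, IFI27 -1.42 and -1.45, and BCL2A1 -1.98 and -2.01.

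The genes with the largest rises with DMSO that the rule takes also had positive changes with TK. KLF2, a transcription factor of resting lymphocytes, had a log2 change of 0.63 (SE 0.22, edgeR adjusted p = 0.134) with TK and 1.34 (SE 0.24, edgeR adjusted p = 0.00908) with DMSO. PFKFB4, a regulator of glycolysis, had 0.62 (SE 0.27) with TK, where it did not pass, and 1.43 (SE 0.29) with DMSO. STS, the steroid sulfatase, had 0.82 (SE 0.16) with TK and 1.15 (SE 0.17) with DMSO, and PEG10, a gene derived from a retrotransposon, 0.63 (SE 0.15) and 1.03 (SE 0.16). STS did not pass with TK without TK 8 h replicate 1 (0.83) or 2 (0.74), nor PEG10 without any TK library but TK 8 h replicate 3 (0.49 to 0.66). CD82, a tetraspanin of the cell surface, fell with both, by a log2 change of -1.31 (SE 0.29) with TK and -1.67 (SE 0.34) with DMSO. CD82 did not pass with TK without TK 18 h replicate 2 or 3 or TK 8 h replicate 1 or 2 (-1.04 to -1.23). ACHE, IL32 and EBI3, given above for their falls with TK, also fell with DMSO. Over 13 alternative fits their log2 changes with DMSO were -2.16 to -1.91 for ACHE, -1.96 to -1.76 for IL32 and -1.90 to -1.58 for EBI3. Without either DMSO 18 h library no gene passed in the DMSO contrast, and without DMSO 8 h replicate 2 there were 11.

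The test of the difference itself, the time change with TK minus that with DMSO, called 2 genes (0.0121% of those tested), both higher. SESN1 had 12.2 and 12.7 CPM with DMSO at 18 h, against 13.9, 14.5 and 12.3 CPM with DMSO at 8 h, and its difference was 1.18 (log2, SE 0.19, edgeR adjusted p = 0.0408). Its TK 18 h libraries were above all 8 other DOHH2 libraries. CYP4F3, a fatty acid hydroxylase whose mean was under 5 CPM and which was chosen after its values were seen, had 9.73, 4.93 and 6.30 CPM at 18 h, against 1.04, 1.20 and 1.52 CPM at 8 h with TK. With DMSO it had 0.275 and 0.839 CPM at 18 h, against 1.17, 1.38 and 1.27 CPM at 8 h. The difference was 3.62 (SE 0.53, edgeR adjusted p = 0.0408), and the counts are uncertain because the CYP4F family holds similar genes. The call of SESN1 ended without any 1 of the 11 DOHH2 libraries (1.13 to 1.25). That of CYP4F3 passed without TK 18 h replicate 2 (3.82) or DMSO 18 h replicate 3 (4.67) and ended without any of the other 9 (3.07 to 3.78). MDM2 had a difference of 1.01 (SE 0.19, edgeR adjusted p = 0.205), NEAT1 of 0.81 (SE 0.17, edgeR adjusted p = 0.517) and H1F0 of 3.20 (SE 0.65, edgeR adjusted p = 0.337), none of which passed. All 30 p53 targets had positive differences, with a median of 0.65, all 14 histones (median 0.93), and 22 of 23 NF-kB targets (median 0.41). All 32 mitosis genes had negative ones (median -0.51). In these lists the difference passed for 1 p53 target and for 0 histones, 0 NF-kB targets and 0 mitosis genes. The lists were chosen with earlier results known, and the difference reuses the TK libraries described above. These signs are therefore not separate evidence. The median over all genes was 0.01.

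In U2932 with TK, 36 genes passed between 18 h and 8 h (0.218% of those tested), 10 higher (0.0607%) and 26 lower (0.158%), and none of the 258 genes of DOHH2 passed there in the same direction. Of the genes that rose in DOHH2, 34 of 112 had a positive change in U2932, and of those that fell, 25 of 146 had a negative one. Over the 10012 genes of higher level above, Pearson's r between the TK changes of the lines was -0.293. Over all 16478 genes tested it was -0.101. Opposite changes were therefore not confined to the genes called. The difference between the lines passed for 1103 genes (6.69%), 465 higher (2.82%) and 638 lower (3.87%) in DOHH2, among them 67 of the 112 rises and 107 of the 146 falls. These rises and falls were chosen by the DOHH2 libraries that also enter the difference. A difference in them was therefore partly built in. Without U2932 TK 8 h replicate 2 the lines differed in 0 genes. MDM2 had a mean of 70.2 CPM at 18 h and 78.7 CPM at 8 h in U2932 with TK, and its log2 change was 1.06 in DOHH2 and -0.17 (SE 0.14) in U2932. BCL2A1 had a mean of 257 CPM at 18 h and 162 CPM at 8 h in U2932, and its change was -1.98 in DOHH2 and 0.66 (SE 0.25) in U2932. The difference of changes was 1.22 (SE 0.19, edgeR adjusted p = 0.00847) for MDM2 and -2.64 (SE 0.35, edgeR adjusted p = 0.00392) for BCL2A1.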

How the data were processed

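RNA-seq counts of 20 libraries were used. The submitters' processing notes name STAR, HTSeq, edgeR and the build GRCh38.p10. The deposited values are raw counts and cover 58288 genes per library, and 5 summary rows were dropped. No source used here gives the strand setting or the release of the annotation, so a gene and an overlapping antisense gene cannot be told apart. Symbols and coordinates are from GENCODE v29 (16433 of 16478 genes tested).

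All 20 libraries were fitted with edgeR 4.0.16 (R 4.3.3), with 1 coefficient for each of 8 groups, TMM scaling and a robust quasi-likelihood fit. To be tested, genes needed the CPM of 10 counts in the median library (0.288 CPM) in at least 3 libraries, which kept 16478 of 34160 genes with any count. P-values were adjusted by Benjamini-Hochberg over these, at 0.05. The fits were tested on simulated data. Each SE is the absolute log2 change divided by the square root of the F statistic. Its spread is estimated from all 20 libraries together, not from the compared libraries alone. At 30363255 to 52275430 counts, counting error is small for well expressed genes. It is larger for genes of low level such as GABARAPL1, CCL4 and CYP4F3. A gene at 0 in these libraries may be present below the limit of depth.

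The members and the 48 gene lists were chosen with earlier results of these data known, and lists were given no test. The naming rule takes up to 12 rises and 12 falls with TK of at least 5 CPM without overlap, up to 5 for the other DOHH2 contrasts, and up to 4 members per list. Single-gene results of some genes that it takes are not reported here. Alternatives were scaling by RLE, testing all genes, a minimum of 50 counts, fewer groups, a replicate block, DESeq2 1.42.0, limma 3.58.1 voom with quality weights, and libraries left out.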

Additional observations from a re-analysis of the deposited data

Results flagged for a closer look

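In DOHH2, 2 genes had a time change with TK that differed from that with DMSO by the test of the difference, SESN1 (log2 difference 1.18) and CYP4F3 (3.62), both higher with TK.

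By the same kind of test, 1103 genes had a time change with TK that differed between DOHH2 and U2932. The named genes below had passed with TK in DOHH2, whose libraries also enter this difference. Its sign in them was therefore partly built in. Among the named genes the change was higher in DOHH2 for H1F0 (log2 difference 2.89), MIR34AHG (2.13), HIST2H2BE (2.06), HIST1H2BJ (1.62), SAMD9 (1.43), GABARAPL1 (1.28), MDM2 (1.22), MXD1 (1.14), STAT2 (1.08), SESN1 (1.07), PEG10 (0.91), LRMP (0.86), NEAT1 (0.82) and KDM3A (0.79). It was lower in DOHH2 for SNHG17 (-0.64), HSPA8 (-0.90), CD79B (-0.97), RPL18 (-1.06), MIR155HG (-1.19), RPS19 (-1.26), IZUMO4 (-1.28), NINJ1 (-1.34), CD40 (-1.49), CD82 (-1.60), LGALS1 (-1.67), LINC00158 (-1.83), EBI3 (-2.13), IFI27 (-2.25), BCL2A1 (-2.64) and CCL4 (-2.78). Leaving out U2932 TK 8 h replicate 2 ended every call of this contrast.

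Reads outside the gene counts were unusual in TK 18 h replicate 1 of DOHH2, where 56.6% of all counts were not uniquely aligned, a share of 20.7 to 34.3% elsewhere in the series.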

How the results depend on the processing

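The count of genes that passed depended on the fit. For 18 h against 8 h with TK (258 genes) it was 861 without a filter, 31 with the DOHH2 libraries only, 7 with the libraries of the 2 groups only, 795 with DESeq2, 4098 with voom quality weights, 115 without TK replicate 1 of both times and 36 to 1268 with 1 library left out. For DMSO (104) it was 445, 43, 235, 263 and 1849 in the first 5 of these fits and 0 to 138 with 1 library left out. For the difference of the time changes (2) it was 58 without a filter, 1 with a filter at 50 counts, 0 with the DOHH2 libraries only, 7 with DESeq2, 7 with voom, 0 without both replicates 1 and 0 to 2 with 1 library left out. For U2932 (36) it was 739 without a filter, 77 with a filter at 50 counts, 1292 with the 2 groups only, 667 with DESeq2, 1594 with voom and 0 to 118 with 1 library left out. For the difference between the lines (1103) it was 1769 without a filter, 2011 with DESeq2, 4129 with voom and 0 to 2689 with 1 library left out. The causes were not tested.

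With the replicate number as a block, 277 genes passed for TK (207 of the 258), 4 for the difference of the time changes (1 of the 2 reported, since SESN1 had an edgeR adjusted p of 0.0798) and 640 for the difference between lines. The labels do not say whether the numbers pair the samples. Deviations of same-numbered TK 18 h and 8 h libraries correlated at 0.36, -0.18 and 0.46 for replicates 1, 2 and 3. Not every library correlated best with its own number. With so few libraries per time, these values cannot decide whether the samples are paired. The falls were 56.6% of the genes called with TK and 58.7% with RLE scaling. With TK 18 h replicate 2 or 3 left out they were 44% or 39.6%, and with TK 8 h replicate 2 left out 36.1%, so that rises outnumbered falls in these 3 fits. All 258 genes kept their sign in the 6 fits that left out a TK library, which choosing them with all TK libraries made nearly certain. Of the 53 named genes that passed with TK, 53 passed with DESeq2, 52 with RLE scaling, 20 with the DOHH2 libraries only and 5 with the 2 groups only. Genes under 5 CPM, such as CYP4F3, rest on fewer counts and are less precise.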

Other observations

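The genes that changed with TK differed in length. The median summed exon length was 6264 bases for the 111 rises with a length in GENCODE v29, 2813 bases for the 146 falls and 4322 bases for all genes tested. With DMSO, the medians were 6471 bases for the rises and 3674 bases for the falls. These values are given as a description, and their link to library quality was not tested.

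Chromatin modifier genes that are often mutated in lymphoma had positive changes with TK in 14 of 15 members, with a median of 0.31, against 0.18 with DMSO, and none passed. KDM6A, a histone H3 demethylase, had a log2 change of 0.48 with TK (edgeR adjusted p = 0.0742). Without both replicates 1 the median was 0.02, and without TK 18 h replicate 1 it was 0.11. Immediate early genes, which growth factors switch on within minutes, had a median of -0.01 with TK and -0.50 with DMSO over 19 members, none of which passed. NR4A2, a nuclear receptor of this group, had a log2 change of 0.97 with TK (edgeR adjusted p = 0.0849) and 0.20 with DMSO.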
